A study of Mus musculus with 3 samples.

Results

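The genes described are the TREM receptors and the adaptors they signal through: Trem1, Trem2, Trem3, Treml1, Treml2, Clec5a, Tyrobp and Hcst. They are 8 of 34770 gene and transcript names on the array and were taken by name, with every probe that carries the name. The group was selected on the Trem2 levels, far higher on both treated arrays than on the untreated one, so its differences from untreated cells are only described. The RNA came from HoxA9-Meis1 AML cells, a C57Bl/6 mouse model of acute myeloid leukaemia that was taken from bone marrow and kept in SFEM, a serum-free medium. The cells are named for Hoxa9 and Meis1, homeobox factors that together drive myeloid leukaemia in mice, and whether they are 1 clone is not given in the sources used here. One array held RNA of untreated cells. A further array was labelled RA plus D3V, all-trans retinoic acid and a 1α-hydroxy vitamin D3 at 10 µM each, and the last was labelled A2, a compound named Pyrydopyrazine A2, at 3.4 µM. Treatment lasted 24 h. The design compares each treatment with untreated cells and has 1 sample a condition, so no test was possible and every difference is one between single arrays.

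TREM receptors are immunoglobulin-like proteins of myeloid cells that mostly have no signalling tail of their own. They pair in the membrane with Tyrobp (DAP12), whose ITAM, a tyrosine motif, recruits the kinase Syk when phosphorylated, or with Hcst (DAP10), which recruits PI3 kinase. Trem2 binds lipids and lipoproteins on macrophages, microglia and osteoclasts. Trem1 amplifies inflammatory responses of neutrophils and monocytes.

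The probe of Tyrobp and the second probe of Treml2 are shown because their 60 bases lie over longer stretches of genome, 1728 and 241 bases, so that they match spliced message rather than a single stretch of DNA. Capitals in the Tyrobp probe mark a tyrosine codon, a pair of further codons and a leucine codon, the pattern that opens the ITAM.
Tyrobp probe, mm9 chr7:31200651-31202378, plus strand: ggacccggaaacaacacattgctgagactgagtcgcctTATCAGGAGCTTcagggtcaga
Treml2 second probe, mm9 chr17:48448517-48448757, plus strand: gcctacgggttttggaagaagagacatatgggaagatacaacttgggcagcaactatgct
The upstream sequences of Trem2 and Treml1, neighbours that were higher on both treated arrays than untreated, follow as the 250 bases before each RefSeq start in GRCm38.p6, a later build than the probe positions. Capitals mark TGACCT, which is AGGTCA on the opposite strand, and CACGTG.
Trem2 upstream, chr17:48346151-48346400, plus strand: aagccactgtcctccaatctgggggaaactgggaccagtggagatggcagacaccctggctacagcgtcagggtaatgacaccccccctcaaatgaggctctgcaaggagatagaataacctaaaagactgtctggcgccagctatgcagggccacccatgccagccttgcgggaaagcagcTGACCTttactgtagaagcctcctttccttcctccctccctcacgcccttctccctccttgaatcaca
Treml1 upstream, chr17:48359666-48359915, plus strand: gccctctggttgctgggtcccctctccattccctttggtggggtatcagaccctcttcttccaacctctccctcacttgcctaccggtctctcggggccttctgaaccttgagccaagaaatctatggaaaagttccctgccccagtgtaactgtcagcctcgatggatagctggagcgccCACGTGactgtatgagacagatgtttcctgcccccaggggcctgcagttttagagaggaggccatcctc

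The RefSeq promoter table used here matched 5 of the 8 genes, namely Clec5a, Hcst, Trem1, Trem2 and Treml1. In windows of 300 bases (250 before and 50 after the start), 4 motifs of 6 letters were searched on both strands. AGGTCA, a letter string of nuclear receptor sites, was found in Trem2 alone, at position -68, and in 16.3% of 32851 promoters. AGTTCA, a related string, was in the Trem1 window at -112 and in 14.0% of promoters. CACGTG, the E-box, was in the Treml1 window at -69 and in 7.15%. GGAAGT, the core read by Ets factors such as Spi1, was in Hcst at -45 and -16 and in Trem1 at -109, where it overlaps AGTTCA, and in 23.8% of promoters. None of the 4 was in the Clec5a window. A match describes letters only.

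The arrays had similar detection, with 46.0% to 46.8% of 59305 spots well above background, and no spot was saturated. The treated labels differ between sources: by rank over 59280 spots, each treated column of the authors' deposited value table has the spot order of the scanner file that bears the opposite treated label (Spearman 1). The scanner labels are used throughout, with no decision on which source is right. If the table is right, every value given for one treated array belongs to the other treatment. The table's untreated column matched no scanner file, and its origin is not known. Its Spearman was 0.942 with the untreated file, 0.929 with the RA plus D3V file and 0.930 with the A2 file. By its label it served as a second control. The control sources differed with an SD of 0.268 on the log2 scale over 17003 genes detected on all arrays, and 0.635% of those genes lay at least 2-fold apart. Of 12 genes listed for the leukaemia cells, not all particular to them, 10 were detected on each array. Hoxa9 had a log2 level of 4.34 in untreated cells, while Meis1 and Hoxa10 were not well above background on any array. The summed level of 10 macrophage markers, as a multiple of each array's 75th percentile signal, was 145 untreated, 318 on the RA plus D3V array and 317 on the A2 array. Csf1r, Cd68 and Adgre1 made up most of each sum. Despite like sums, 4 of these 10 were at least 2-fold lower with A2 than with RA plus D3V, and 0 higher (median -0.79). Of all genes 4.04% were that much lower. For the 12 leukaemia cell genes the summed level was 999 untreated, 576 with RA plus D3V and 346 with A2. Mpo, a granule enzyme gene, made up most of the untreated sum and had log2 levels of 9.39, 7.82 and 7.17. The list's median log2 differences were -0.10 with RA plus D3V and -0.51 with A2. With A2, 2 of 10 measured were at least 2-fold higher, Hoxa9 (1.19) and Kit (1.70). Another 3 were lower, Mpo (-2.22), Flt3 (-2.28) and Cd34 (-1.30). With RA plus D3V 0 were higher and 2 lower, Mpo (-1.57) and Flt3 (-1.80). Of all genes 7.92% were higher and 6.46% lower with A2, and 7.78% and 5.06% with RA plus D3V. For 9 neutrophil markers the sums were 647, 1047 and 818. Their median log2 differences were 0.38 with RA plus D3V and 0.17 with A2. On each treated array 6 of the 9 were within 2-fold of untreated cells, 2 higher and 1 lower. The shares of all genes were 7.78% higher and 5.06% lower with RA plus D3V, and 7.92% and 6.46% with A2. The part of these shifts in the results was not tested. A change in the share of a cell type and a change of RNA per cell cannot be told apart in such bulk RNA.

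Levels are log2 processed signals after subtraction of the array's own 75th percentile on that scale, so a level of 0 is the 75th percentile signal. A gene was measured in a comparison where both arrays had its probe well above background, and it was counted as higher or lower from 2-fold on. On this basis 6 of the 8 genes were measured on the A2 array against untreated cells, and 2 of them, Trem2 and Treml2, were at least 2-fold higher. Over all 17279 genes measured, 7.92% were that much higher. None of the 6 was at least 2-fold lower, against 6.46% of all genes, and 4 lay within 2-fold. The 6 had a median log2 difference of 0.68, beside -0.03 over all genes. On the RA plus D3V array 2 of the 6 measured were at least 2-fold higher, Trem2 and Trem1, against 7.78% of genes, and none was lower, against 5.06%. Their median was 0.50, beside -0.03. Both comparisons share the untreated array. Between the treated arrays 7 of the genes were measured. Treml2 was at least 2-fold higher with A2, where 3.78% of 17628 genes were, and Trem3 at least 2-fold lower, where 4.04% were. The median of the 7 was -0.14, beside -0.02.

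**Figure D1:**
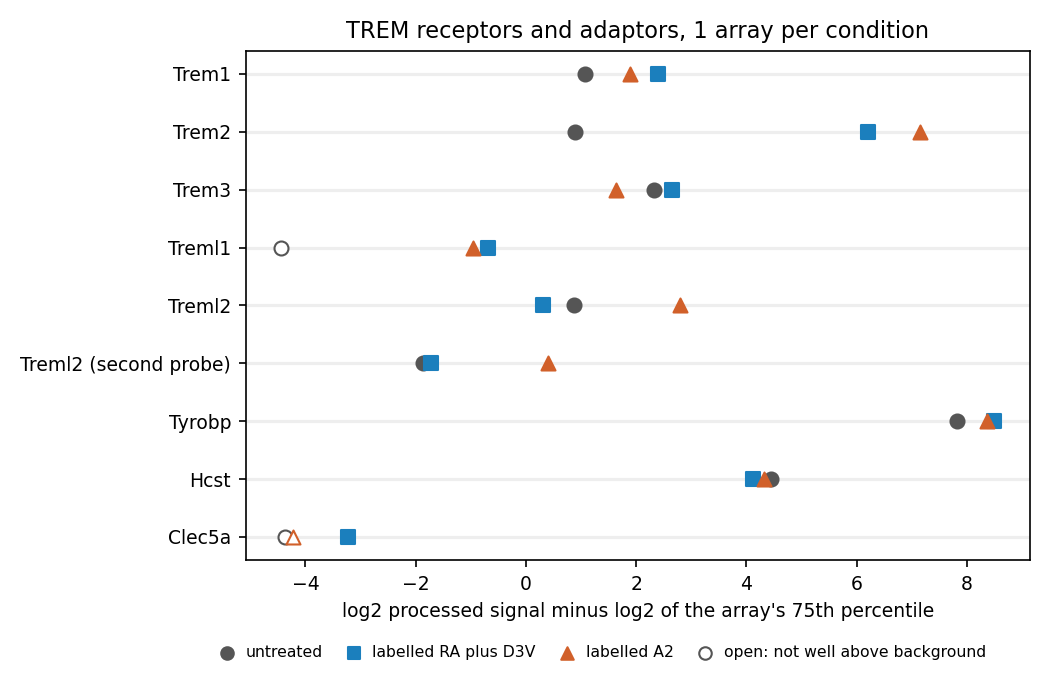
Level of each receptor and adaptor probe, as log2 processed signal relative to the 75th percentile of its array, with 1 point per array; open symbols were not well above background. Trem2 goes from 0.89 untreated to 6.21 (RA plus D3V) and 7.15 (A2), both Treml2 probes are highest on the A2 array, and the 3 points of Tyrobp and of Hcst lie close together.

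Trem2, the lipid-sensing receptor, had a log2 level of 0.89 in untreated cells, 6.21 on the RA plus D3V array and 7.15 on the A2 array. The processed signals were 665, 21625 and 39034. Both treated arrays were high and the untreated array was low, though detected. The difference from untreated cells was 5.32 with RA plus D3V (40.0-fold) and 6.26 with A2 (76.7-fold). Among 17279 measured genes these placed Trem2 at rank 9 and rank 12 from the highest. The treated arrays differed from each other by 0.94 (1.92-fold, higher with A2), just inside 2-fold. The second control lay 0.28 above the untreated array for Trem2, far less than either treated difference. Its probe lies at chr17:48491537-48491596 in mm9, the build of all probe positions given.

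Trem1, the inflammatory amplifier, had log2 levels of 1.08 untreated, 2.40 with RA plus D3V and 1.89 with A2. Both treated arrays were higher, by 1.32 (2.50-fold) and 0.81 (1.76-fold). The A2 array was 0.51 below the RA plus D3V array on the log2 scale, and the second control lay 0.13 above the untreated array. The probe, at chr17:48385849-48385908, holds 13 tandem copies of a unit of 3 bases made of G and T, which fill 39 of its 60 bases. Such repeats are not particular to 1 transcript, and 5 probes on the array hold 8 or more of these units. Over those 5, Trem1 included, the median difference was 0.56 with RA plus D3V (range -0.15 to 1.32) and 0.27 with A2 (range -0.33 to 0.81). Trem1 had the highest value of the 5 in both, and whether the repeat bears on the Trem1 signal was not tested.

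Trem3, a mouse receptor that pairs with Tyrobp, had log2 levels of 2.32 untreated, 2.64 with RA plus D3V and 1.63 with A2. It was the one measured receptor of the family that was lowest on the A2 array. The difference from untreated cells was 0.33 and -0.69 in that order, both within 2-fold. Between the treated arrays the difference was -1.01 (2.02-fold lower with A2), at the edge of the 2-fold rule: with normexp background correction it was -0.95 and no longer counted. The probe lies at chr17:48397990-48398049.

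Treml2, a receptor of B cells and myeloid cells that has its own tail and is not known to need Tyrobp, was read by 2 probes. The brighter probe, at chr17:48451800-48451859, had log2 levels of 0.88 untreated, 0.32 with RA plus D3V and 2.79 with A2. The A2 array alone was high. It was 1.92 above the untreated array (3.78-fold) and 2.47 above the RA plus D3V array (5.56-fold). The second probe, shown above, had levels of -1.86, -1.73 and 0.41 in the same order. It gave 2.27 over untreated cells (4.83-fold) and 2.13 over RA plus D3V (4.39-fold). The probes thus gave like differences for A2. For RA plus D3V they differed in sign, at -0.56 and 0.14, both within 2-fold. The control sources differed by -0.08 and -0.01 for the 2 probes.

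Treml1, a receptor of platelet and megakaryocyte granules with an inhibitory motif in its tail, was not well above background in untreated cells. It was detected on both treated arrays, at log2 levels of -0.68 with RA plus D3V and -0.96 with A2 (processed signals 181 and 141, against 16.6 untreated). Against the lowest signal that could be detected, or its own where higher, this was at least 11.3-fold higher with RA plus D3V and at least 9.39-fold higher with A2. The treated arrays differed by -0.27. For this dim probe the second control lay 0.70 above the untreated array, and against that control the ratios were 6.56-fold and 5.57-fold. The probe lies at chr17:48506365-48506424. The summed level of 9 platelet and megakaryocyte markers was 0.520 untreated, 21.8 with RA plus D3V and 16.4 with A2. Of these 9, 6 surface genes (Itga2b, Gp1ba, Gp1bb, Gp5, Gp6 and Gp9) were not well above background on any array. Those that carried the sum were Pf4 and Ppbp, chemokines stored in platelets. Pf4 was 5.68 and 4.50 above untreated cells with RA plus D3V and A2, and Ppbp was at least 40.9-fold and at least 140-fold higher. Ppbp was not well above background in untreated cells, and the second control lay 2.18 above the untreated array for it. For Pf4 the control sources differed by -0.02.

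Clec5a (MDL-1), a lectin-like receptor that pairs with Tyrobp and Hcst, was near the detection limit. It was well above background only on the RA plus D3V array, at a log2 level of -3.23 and a processed signal of 31.1, beside 17.4 untreated and 14.6 with A2. The bound was at least 1.94-fold higher than untreated and at least 1.95-fold higher than with A2. Against the second control, which carries no detection flag, the RA plus D3V ratio was 1.38-fold. The probe lies at chr6:40525116-40525175, minus strand.

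Of the adaptors, Tyrobp had log2 levels of 7.82 untreated, 8.49 with RA plus D3V and 8.36 with A2. It was bright on all arrays and a little higher on both treated ones, by 0.67 and 0.54 (1.45-fold for A2). The treated arrays differed by -0.14, and the control sources by 0.14. Its processed signals, 80940 untreated, 104937 and 89836, were flagged as saturated on no array.

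Hcst, which lies next to Tyrobp on chromosome 7 in the opposite orientation (probe at chr7:31202736-31202795), had log2 levels of 4.45 untreated, 4.12 with RA plus D3V and 4.33 with A2. The treated arrays were slightly below the untreated one, by -0.33 and -0.12. Both adaptors were within 2-fold on arrays where Trem2 differed by over 5 on the log2 scale. Of the genes around this pair, Sdhaf1 (-0.42 and -0.41 with RA plus D3V and A2) and Nfkbid (-0.42 and -0.83) were within 2-fold too, as was Syne4 (0.21 and 0.09). Aplp1 and Kirrel2 were not well above background on any array, and Lrfn3 was so on the untreated array alone.

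**Figure D2:**
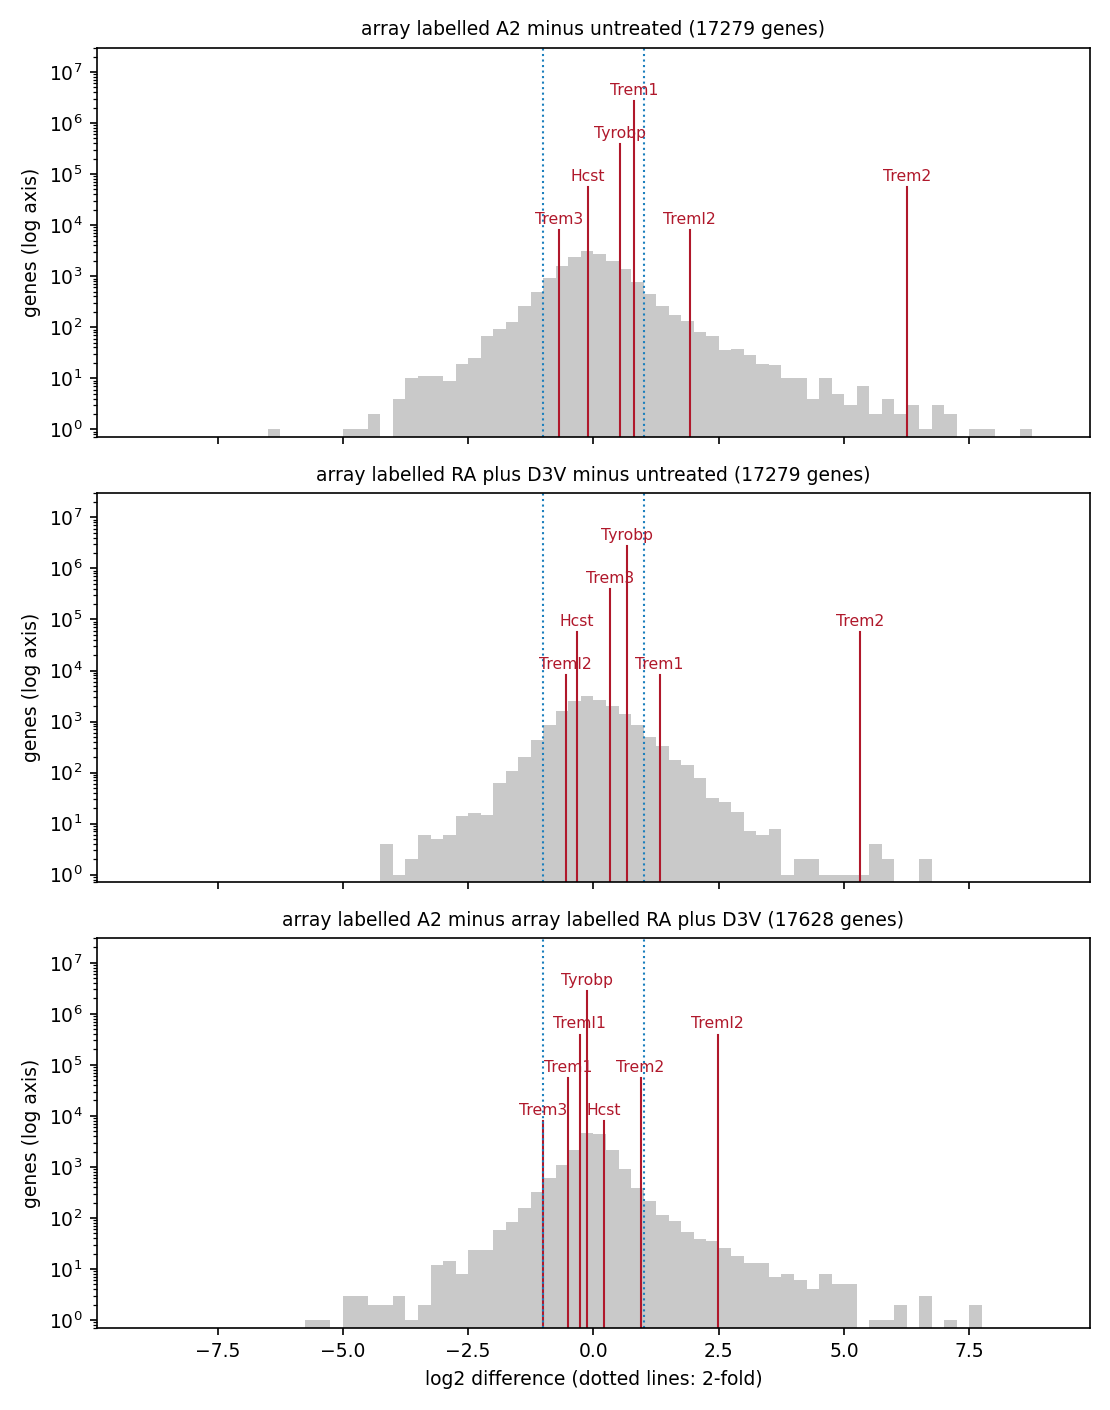
Histograms of the log2 difference of all measured genes (count on a log axis) in the 3 comparisons, with lines for the receptors and adaptors measured in each and dotted lines at 2-fold; line heights only separate the labels. Trem2 stands far right at 6.26 and 5.32 in the comparisons with untreated cells, and Treml2 is at 2.47 between the treated arrays.

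Trem1, Trem2, Trem3, Treml1 and Treml2 lie in 1 cluster on chromosome 17, in the probe order Trem1, Trem3, Treml2, Trem2, Treml1, and their differences were not alike along it. B430306N03Rik, a gene between Treml2 and Trem2 whose probe lies 26.7 kb from that of Trem2, had log2 levels of 1.94 untreated, 2.87 with RA plus D3V and 6.57 with A2. It resembled Treml2 more than Trem2, since the A2 array alone stood well above the rest: it was 4.63 above untreated cells and 3.70 above RA plus D3V. Its second probe gave 3.56 and 3.20. Treml4, between Trem3 and Treml2, was dim and within 2-fold on both treated arrays (-0.24 with RA plus D3V and 0.31 with A2). Treml1 is the nearest gene on the far side of Trem2, with probes 14.8 kb apart. Beyond it Nfya, a subunit of the CCAAT-binding factor, was at -0.47 and -0.76, and Oard1 at -0.13 and 0.08. On the other flank A530064D06Rik was at 0.54 and 0.50, while 1700067P10Rik, 9830107B12Rik and, past Oard1, Apobec2 were not well above background. Around Clec5a on chromosome 6, the olfactory and taste receptor genes Olfr460, Olfr461 and Tas2r138 and the gene Moxd2 were not well above background, and Prss37 was within 2-fold. Mgam, an intestinal maltase gene, was not well above background untreated on its brighter probe. That probe was detected on both treated arrays, at least 3.84-fold higher with RA plus D3V and at least 2.70-fold higher with A2. The other Mgam probe was not well above background on both arrays of any comparison, so it gave no difference.

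**Figure D3:**
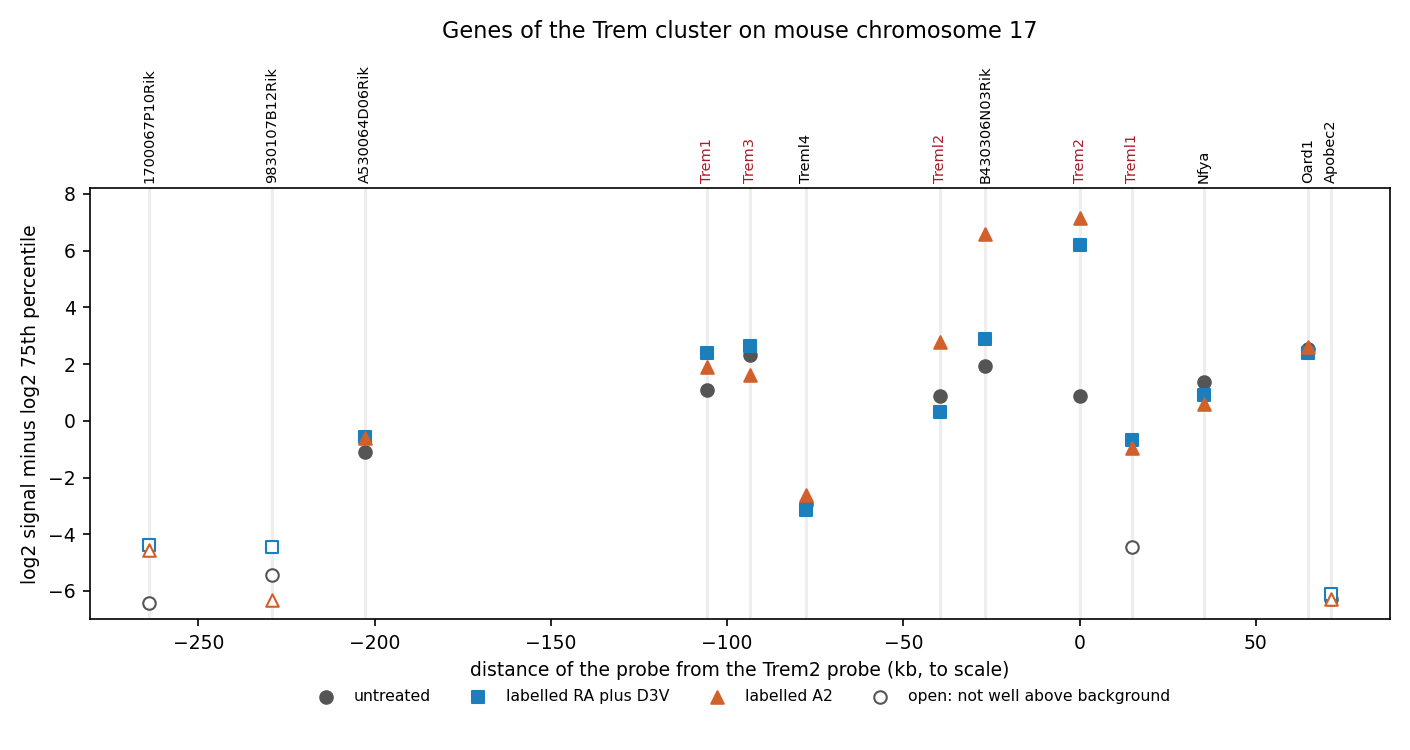
Log2 level of the genes of the chromosome 17 cluster and its flanks on the 3 arrays, placed by the distance of each probe from the Trem2 probe in kb. Names in red are the receptor genes described here, and other genes, Treml4 among them, are in black. Open symbols were not well above background. Trem2 is high on both treated arrays, while Treml2 and B430306N03Rik are high on the A2 array.

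The genes most like Trem2 were found by the Euclidean distance of both treated-minus-untreated log2 differences, over 17002 other genes and 3 arrays. Aldoc, a glycolytic aldolase, was nearest at a distance of 0.47, with differences of 5.79 (RA plus D3V) and 6.34 (A2). Ms4a7, a membrane protein of macrophages, followed at 0.68, with 4.75 and 5.88. Cgn (cingulin, a tight junction protein), the chemokine Ccl2, Ankrd37 and Pf4 lay at 1.60 to 1.79. The likeness rests on 2 differences that share 1 control array.

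Other receptors listed as pairing with Tyrobp or Hcst are the first group around the TREM genes, with 12 of 21 measured. On the A2 array 5 were at least 2-fold higher and 1 lower, with a median of 0.62, and on the RA plus D3V array 6 were higher and 1 lower, with a median of 1.21. The medians over all genes were -0.03 in both. Of all genes 7.78% (RA plus D3V) and 7.92% (A2) were at least 2-fold higher, and 5.06% and 6.46% lower. Sirpb1b and Sirpb1a, activating signal-regulatory proteins, were at 2.44 and 2.29 with RA plus D3V and at 2.10 and 1.96 with A2. They are near-identical copies whose probes may read each other, so they count as uncertain. Cd300c2 was at 2.09 and 1.68, Cd200r4 at 1.53 and 1.36, and Cd300ld at 0.92 and 2.02, in the same order of arrays. Pilrb1 and Pilrb2, also close copies, were at 1.51 and 1.82 with RA plus D3V and at -0.42 and 0.31 with A2. Cd300e, the 1 lower with RA plus D3V, was at -1.92 and -0.58. Clec4d, whose pairing with these adaptors is uncertain, was the 1 lower with A2, at 0.55 and -1.09. The NK cell receptors Klrk1, Ncr1, Klrc2, Klra4 and Klra8 were not well above background on any array.

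Of adaptors with an ITAM other than Tyrobp 6 were measured. None was at least 2-fold higher on either treated array, where 7.78% (RA plus D3V) and 7.92% (A2) of all genes were. Cd3d, a T cell receptor chain, was lower on both (-1.55 and -1.86). Cd3g, detected in untreated cells only, was at least 2.38-fold lower with RA plus D3V and at least 2.74-fold lower with A2. Fcer1g, the Fc receptor gamma chain of myeloid cells, was at 0.67 with RA plus D3V and 0.80 with A2, close to the Tyrobp values. The medians were -0.12 and -0.14. The summed level of 9 T and NK cell markers was 17.6 untreated, 11.6 with RA plus D3V and 16.8 with A2. Single markers differed more than the sum: with A2, 3 of 5 measured were at least 2-fold lower and 0 higher (median -1.81), and with RA plus D3V 2 of 4 were lower and 0 higher (median -1.06). Among all genes 6.46% (A2) and 5.06% (RA plus D3V) were that much lower.

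Kinases and effectors below the adaptors were mostly within 2-fold, 25 of 27 measured with RA plus D3V and 22 of 28 with A2. The medians were 0.19 and 0.36. With RA plus D3V 2 were at least 2-fold higher and 0 lower, where 7.78% and 5.06% of all genes were. With A2 4 were higher and 2 lower, where 7.92% and 6.46% of all genes were. Syk, the kinase that docks on the Tyrobp ITAM, was at 0.13 and 0.26. Fgr, a Src family kinase of myeloid cells, was at 1.17 and 1.00, and Nfatc1, a calcium-responsive transcription factor, at 1.26 and 0.90. With A2, Lat, a scaffold of phospholipase C signalling, was at 1.99 and Rac2, a GTPase of blood cells, at 1.60, beside 0.17 and 0.19 with RA plus D3V. Zap70, the T cell relative of Syk, was at -1.83 with A2, and Fyn at -1.81 with A2 and at least 4.49-fold lower with RA plus D3V.

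Inhibitors of the pathway had 5 of 18 measured higher by at least 2-fold with RA plus D3V, 0 lower and a median of 0.36, and 4 of 19 higher and 1 lower with A2 (median 0.42). The shares of all genes were 7.78% higher and 5.06% lower with RA plus D3V, and 7.92% and 6.46% with A2. Cd300lf, an inhibitory receptor of myeloid cells, was at 2.15 and 3.35. Sirpa, the receptor of the signal CD47, was at 1.30 and 1.27, and Cd200r1 was 2.14-fold and 3.06-fold higher. Pilra, the inhibitory partner of the Pilrb genes, was at 1.82 with RA plus D3V and 0.42 with A2. Cd300a was at -0.78 and -1.21. The phosphatases that end ITAM signals, Inpp5d (SHIP1) at 0.51 and 0.17 and Ptpn6 (SHP1) at 0.38 and 0.73, were within 2-fold.

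Ligands and co-receptors of the TREM proteins split, with 11 of 14 measured. With RA plus D3V 2 were at least 2-fold higher, with 1 lower (median 0.30), and with A2 3 were higher and 1 lower (median 0.08). Beside these, 7.78% and 5.06% of all genes were higher and lower with RA plus D3V, and 7.92% and 6.46% with A2. Clu, a lipoprotein that Trem2 binds, was at 1.29 and 4.73, and Apoe, another, at -0.87 and -0.50. C1qa, a complement subunit, was at 2.98 and 0.77, and Lgals3 at 0.45 and 1.32. Plxna1, a plexin that forms a complex with Trem2 and Tyrobp, was at 0.85 and 1.05, while its ligand Sema6d was at -1.94 and -2.00. Of 10 genes of receptor shedding and processing, all measured, 1 was at least 2-fold higher on each treated array. This was Mmp9, a secreted protease, at 2.17 and 3.73. Counts of 1 in 10 are near the shares of all genes, 7.78% and 7.92%. The sheddases Adam10 (-0.02 and 0.65) and Adam17 (0.58 and 0.73) were within 2-fold.

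A list of lipid and lysosome genes linked to Trem2 in macrophages and microglia was taken, and their dependence on Trem2 here was not tested. Of its 32 genes 29 were measured. With RA plus D3V 11 were at least 2-fold higher, with 1 lower (median 0.63), and with A2 12 were higher and 3 lower (median 0.82). Of all genes, 7.78% were higher and 5.06% lower with RA plus D3V, and 7.92% and 6.46% with A2. Values for A2 went higher: Ccl6, a chemokine, was at 7.24, Gpnmb, a lysosomal membrane glycoprotein, at 5.44, and Spp1 (osteopontin) at 4.68. With RA plus D3V these were at 1.59, 1.59 and 1.55. Clec7a, the beta-glucan receptor, was at 0.82 with RA plus D3V and 3.55 with A2. The lysosomal enzymes Ctsd (1.68 and 2.88) and Lipa (0.30 and 2.88) had the same order. Lyz2 and Timp2 had the opposite one, at 1.82 and 2.13 with RA plus D3V and 0.55 and 0.81 with A2. Fabp3 was alike on both, at 2.11 and 2.35. Cst7 and Csf1 were lower with A2, at -1.54 and -2.01, and Ank was lower on both, at -1.74 and -1.75. Between the treated arrays 7 of 29 were at least 2-fold higher with A2 and 5 lower (median 0.47), against 3.78% and 4.04% of all genes. Of 8 measured macrophage markers, which share Cd68 with this list, 7 were at least 2-fold higher with RA plus D3V (median 2.34) and 6 with A2 (median 1.55). Their part in these values was not tested.

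Cytokines and other genes linked to Trem1 signalling in neutrophils and monocytes had 10 of 17 measured with RA plus D3V. Of these 5 were at least 2-fold higher, with 0 lower (median 1.06). With A2 12 were measured, 5 higher and 2 lower (median 0.66). All genes had shares of 7.78% higher and 5.06% lower with RA plus D3V, and 7.92% and 6.46% with A2. The chemokines Ccl7 (6.53 and 3.16), Ccl2 (5.71 and 4.67) and Ccl4 (2.38 and 4.78) were high on both treated arrays. The prostaglandin synthase gene Ptgs2 was at 2.92 and 0.95. Tnf (-0.38 and -1.99) and Il1b (0.03 and -1.61) were lower with A2.

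**Figure D4:**
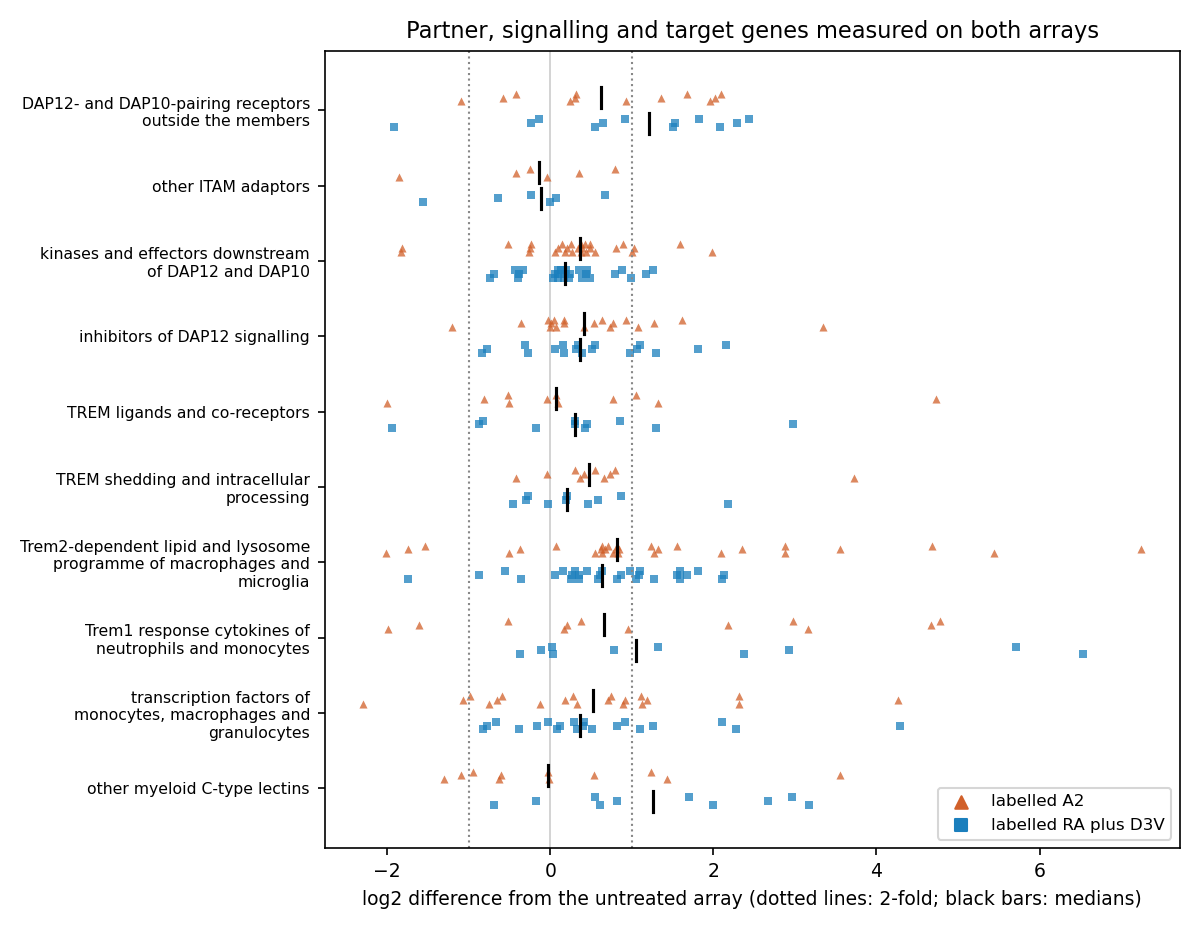
Log2 difference from the untreated array of each measured gene in 10 lists around the TREM receptors, with triangles for the A2 array, squares for the RA plus D3V array and black bars for medians; dotted lines mark 2-fold. The lipid and lysosome list reaches 7.24 (Ccl6) on the A2 array, and the other ITAM adaptors stay at or below 0.80.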

How the data were processed

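Spot intensity was read from the deposited scanner files of 3 one-colour arrays, made with Agilent Feature Extraction 11.5.1.1 per the submitters' processing notes. Per the labels, 50 ng of total RNA was labelled with Cy3. Its processed signal is, per the file headers, intensity after background subtraction and spatial detrending within the array, unscaled between arrays, and probe positions are in mm9. The deposited flags (other values, 0 or 1, per the file headers) tell which spots are uneven, saturated or well above background. The value table deposited by the authors holds linear intensity and its columns share 1 distribution, as after quantile normalization.

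Control spots and 25 uneven spots were left out, which left 55657 probes. Probes were named through RefSeq by accession (27640), symbol (3405) or synonym (321), and 24291 kept the file's name. All 8 genes matched, with 9 probes of 1 spot each, and a gene was read on its brightest probe. Each array was scaled to its 75th percentile on the log2 scale. A fold is written "at least" where 1 side was not well above background; it uses the larger of the probe's own signal and the lowest signal detected on that array. All arrays shared 1 slide and 1 scan time, and their number limits the precision. Exons and untranslated regions are not given because no annotation of mm9 was used here. The genes and lists were chosen with earlier results of these data known. Named genes were drawn from all 8, up to 3 highest and lowest of each list, the 6 most like Trem2 and 3 neighbours on each side, without naming every list gene the rule allows; others named were chosen after their values were seen. A gene that this rule takes is not reported here. Steps were tested on simulated data. The alternatives were other background correction (limma 3.58.1, R 4.3.3), scaling, probe choice, filters and value source.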

Additional observations from a re-analysis of the deposited data

How the results depend on the processing

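Across 8 alternatives, 144 values of the receptors and adaptors were recomputed, and 125 moved by less than the SD of the control sources, 16 moved by more and 3 at least 2-fold apart changed sign. These 3 came from the value table read by its own labels, which exchange the treated arrays: Treml2 was then at -0.47 with A2 against untreated cells and at -2.47 against RA plus D3V, and Trem3 at 1.13 between the treated arrays. Under the other alternatives, that table's control column among them, Trem2 ranged from 5.99 to 6.26 with A2 and from 5.04 to 5.36 with RA plus D3V, Treml2 from 1.73 to 2.10 with A2, and Trem1 from 1.16 to 1.39 with RA plus D3V. Among the 125 were 19 values with no filter on dim probes and 18 with probes detected on all 3 arrays only. Each gene kept its probe there, so these values could not move. The median over a gene's probes could move Treml2 alone, so the 125 overstates stability. The count of genes at least 2-fold apart between the treated arrays was 1 in place of 2 with normexp, which left out Trem3. With no filter on dim probes the count for RA plus D3V against untreated cells was 4 in place of 2. The slide as a block could not be fitted because all arrays lay on 1 slide, and another control does not enter the comparison of the treated arrays. Treml1 and Clec5a, near background, are limited by signal, and the rest by 1 array a condition.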

Other observations

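Transcription factors of monocytes, macrophages and granulocytes were all measured (20 of 20). With RA plus D3V 5 were higher by at least 2-fold and 0 lower (median 0.36), and with A2 6 were higher and 2 lower (median 0.52). For all genes the shares were 7.78% higher and 5.06% lower with RA plus D3V, and 7.92% and 6.46% with A2. Maf, a factor of mature macrophages, was at 4.29 and 4.27. Mitf, which acts on lysosomal and osteoclast genes, was at 0.29 with RA plus D3V and 2.32 with A2. Klf4, a monocyte factor, had the opposite order, at 2.28 and -0.75. Nr4a1 was at -0.67 and -2.29, and Spi1 (PU.1), which binds Ets sites in myeloid genes, was at -0.38 and -0.13.

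C-type lectins of myeloid cells other than Clec5a differed most between the treated arrays. Of 11 measured there, 8 were at least 2-fold lower with A2 and 1 higher, with a median of -1.64, beside -0.02 over all genes. Of all genes measured there, 4.04% were that much lower and 3.78% higher. Clec4a1 was at 2.67 with RA plus D3V and -1.31 with A2, Clec4b1 at 2.97 and 1.24, and Clec4n (dectin-2) at 3.17 and 1.43. Clec7a ran the other way, at 0.82 and 3.55, as did Clec1b and Clec9a, which were not well above background with RA plus D3V and at least 39.3-fold and at least 6.81-fold higher with A2.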
